A study of Sorghum bicolor with 16 samples.

Results

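Plant cells grow by letting their walls yield, and 105 of the 29033 genes in the sorghum root expression table carry an annotation for that process. They were chosen by their gene ontology terms, as genes annotated with plant-type cell wall loosening, with xyloglucan:xyloglucosyl transferase activity or with xyloglucan metabolic process, and without cellulose biosynthetic process. By the term each carried, 65 were placed as wall loosening genes, 32 as xyloglucan transferase genes and 8 as other genes of xyloglucan metabolism. The rule uses no measured value.

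Xyloglucan is a branched glucan that coats and tethers cellulose microfibrils in the primary wall. Xyloglucan endotransglucosylase/hydrolases cut xyloglucan chains and join the cut end to another chain or to water, and xylosyltransferases of the Golgi add the side branches while the polymer is made. Expansins are the best known proteins under the wall loosening annotation. They let cellulose and matrix polymers slip past each other at acid pH without breaking the chains. In roots these proteins are known for their part in elongation behind the tip and in root hair outgrowth.

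The table names none of the members by symbol, so each is given by its locus identifier. Of the 32 transferase genes, 31 carry the enzyme number 2.4.1.207, which stands for xyloglucan:xyloglucosyl transferase. Of the 65 loosening genes, 60 carry no enzyme number, and 62 are also annotated with unidimensional cell growth and 24 with sexual reproduction. SORBI_3006G205600 carries all 3 annotations together with enzyme number 2.4.1.207 and was placed with the loosening genes by the order of the rule. Among the 8 other genes, 6 are annotated with xyloglucan 6-xylosyltransferase activity. A few enzyme numbers, such as 1.1.1.82 on 2 loosening genes, belong to unrelated enzymes, so the annotation has errors.

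The roots came from 2 sweet sorghum strains at the 3-leaf phase, and the libraries fell into 4 groups of 2 biological replicates: Roma under salt stress, Roma control, M-81E under salt stress and M-81E control. Roma is labelled salt-sensitive and M-81E salt-tolerant. Each tolerance class is 1 strain, so strain and tolerance cannot be told apart, and the labels give neither the salt dose nor its duration. Poly(A) RNA fragments were sequenced with enrichment by an antibody against N6-methyladenosine (m6A), a methyl mark on mRNA, and without it as input. Expression is in FPKM, fragments scaled by transcript length and library size. Sample descriptions place these values with the enriched samples, but the sources used here do not say outright whether the fragments were enriched or input. A difference in expression therefore cannot be told apart from a difference in enrichment.

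Summed FPKM over all genes was 325987 to 377097 per library, and read totals were not used here, so the depth behind each value is unknown. M-81E control replicate 2 stood apart for the members. It had the lowest of the 8 values for 37 of the 59 members with a mean of at least 1 FPKM, 62.7%, against 22.5% of all 16280 such genes, and 52 of the 59 were lower in it than in M-81E control replicate 1. Some marker sums were lower in it too. Summed FPKM of 66 genes annotated for nucleosome assembly or cytokinesis was 876 in that library against 1356 in the other M-81E control library. That of 10 endodermis genes was 66.8 against 109, and that of 37 root hair genes was 775 against 885. The 102 photosystem and chlorophyll genes gave 315 against 307, and 24 of them reached a mean of 1 FPKM in these roots. In this order, the lists' shares of all summed FPKM were 0.269% against 0.365%, 0.0205% against 0.0293%, 0.238% in both, and 0.0967% against 0.0825%. Their median FPKM per gene was 6.47 against 4.53, 1.02 against 4.61, 6.17 against 8.63, and 0.139 against 0.202. No gene of the 4 marker lists was listed at 0 in every library, and 4 members are also root hair markers. The part of these factors in the results below was not tested, and in bulk roots fewer cells of a type and less RNA per cell cannot be told apart. List medians, calls that were lost and the log2 changes quoted for salt in M-81E or for the interaction are given with and without it.

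Transferase genes as a class made up the largest part of the summed expression of the 105 members in every library. The sum was 2004 and 1557 FPKM in Roma salt roots, 1117 and 1407 FPKM in Roma control roots, 1510.4 and 1179 FPKM in M-81E salt roots, and 1117 and 311.2 FPKM in M-81E control roots. M-81E control replicate 2 was far below the other 7 libraries, as the plot of summed FPKM by library shows. The most abundant member was listed at 0 there, and an exact 0 in such a table can be a failed estimate. Of the 105 members, 40 were listed at 0 in some library, and 7 of these reached 5 FPKM or more in another. Without those 7 genes, a choice made after the data were seen, the sum was 891 and 622 FPKM in Roma salt roots, 814 and 729 FPKM in Roma control roots, 818 and 501 FPKM in M-81E salt roots, and 547 and 176 FPKM in M-81E control roots. The Roma salt and control sums then overlapped, and M-81E control replicate 2 was again the lowest library.

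**Figure D1:**
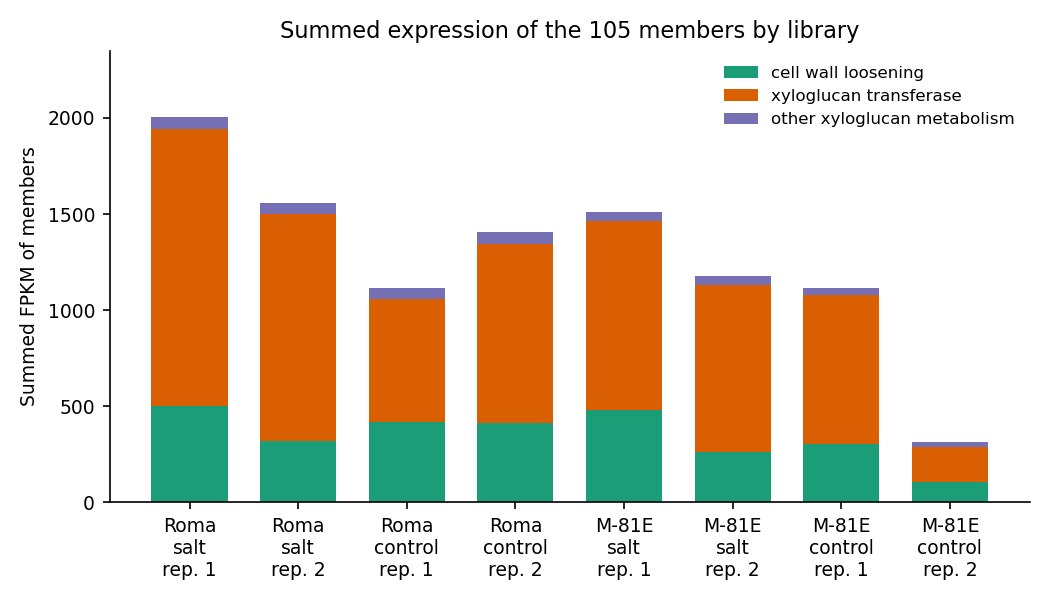
Summed FPKM of the 105 members in each of the 8 libraries (bars, stacked by annotated role). Transferase genes form the largest part of every bar, and M-81E control replicate 2 sums to 311.2 FPKM, below all other libraries.

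Among the transferase genes, the highest mean belonged to SORBI_3010G246400. It had 658 and 561 FPKM in Roma salt roots, 0 and 336 FPKM in Roma control roots, 595 and 403 FPKM in M-81E salt roots, and 310.0 and 0 FPKM in M-81E control roots. Every salt library was above every control library in both strains, but 2 of the 4 control libraries listed this abundant gene at 0, so no fold is given. The runner-up, SORBI_3007G090463, had 416 and 349 FPKM in Roma salt roots, 271 and 253 FPKM in Roma control roots, 0 and 224 FPKM in M-81E salt roots, and 227 and 109 FPKM in M-81E control roots. In Roma its salt libraries were above its control libraries, and in M-81E the groups overlapped, with 1 salt library listed at 0.

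SORBI_3007G090436, also a transferase gene, had 75.8 and 53.9 FPKM in Roma salt roots, 159 and 140.2 FPKM in Roma control roots, 219 and 82.5 FPKM in M-81E salt roots, and 66.9 and 14.01 FPKM in M-81E control roots. Salt libraries were the lower ones in Roma and the higher ones in M-81E, with no overlap in either strain. SORBI_3004G273200 had 118 and 75.1 FPKM in Roma salt roots, 47.9 and 47.7 FPKM in Roma control roots, 37.0 and 56.0 FPKM in M-81E salt roots, and 44.5 and 7.998 FPKM in M-81E control roots. Of its salt comparisons, that in Roma was separate and that in M-81E overlapped. Members of this family with neighbouring identifiers can share sequence, and how reads that match several copies were assigned is nowhere stated, so the split among such copies is uncertain.

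The loosening genes were lower in level. SORBI_3006G205600 led them with 249 and 75.3 FPKM in Roma salt roots, 85.5 and 23.5 FPKM in Roma control roots, 188 and 38.9 FPKM in M-81E salt roots, and 57.1 and 18.6 FPKM in M-81E control roots. Its replicates differed from each other more than salt and control did, and all groups overlapped in the salt comparisons. SORBI_3001G300400 had 42.4 and 37.0 FPKM in Roma salt roots, 84.2 and 79.2 FPKM in Roma control roots, 38.6 and 33.9 FPKM in M-81E salt roots, and 36.9 and 15.9 FPKM in M-81E control roots. The Roma control libraries stood above all others.

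SORBI_3001G300500 ranged from 11.2 FPKM in M-81E control replicate 2 to 63.6 FPKM in Roma control replicate 2. SORBI_3001G301000 had 31.4 and 41.1 FPKM in Roma salt roots, 11.1 and 17.1 FPKM in Roma control roots, 15.2 and 11.2 FPKM in M-81E salt roots, and 57.8 and 4.93 FPKM in M-81E control roots. The M-81E control pair of that gene held both the highest and the lowest of the 8 values.

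Of the other xyloglucan genes, SORBI_3001G401600 had the highest mean, with 35.9 and 33.4 FPKM in Roma salt roots, 27.4 and 27.7 FPKM in Roma control roots, 30.4 and 26.8 FPKM in M-81E salt roots, and 17.6 and 16.02 FPKM in M-81E control roots. Its replicates were close, and salt libraries were above control libraries in both strains. SORBI_3004G164000 had 15.7 FPKM in both Roma salt libraries, 21.3 and 20.5 FPKM in Roma control roots, 12.3 and 15.8 FPKM in M-81E salt roots, and 11.9 and 6.10 FPKM in M-81E control roots. SORBI_3003G085900 ranged from 3.73 to 13.4 FPKM, and SORBI_3003G059600 reached at most 1.04 FPKM. The level thus fell off quickly within this small class, where 5 of 8 genes had a mean under 1 FPKM.

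In all, 59 members had a mean of at least 1 FPKM over the 8 libraries and were tested: 35 loosening, 21 transferase and 3 other genes. The remaining 46 had lower means, and 33 of them stayed under 1 FPKM in every library. At the upper end, 18 members had a mean of at least 10 FPKM. Replicates of the tested members differed by an SD in log2(FPKM + 1) of 0.66 in Roma salt roots, 1.11 in Roma control roots, 1.07 in M-81E salt roots and 1.25 in M-81E control roots. Over all tested genes that SD was 0.55, 0.53, 0.65 and 0.77 in the same order of groups, lower in each. The SD weighs large differences heavily, such as that of SORBI_3010G246400 with 0 and 336 FPKM in Roma control roots. It therefore need not describe the typical member.

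Whether salt changed these genes in M-81E roots rested on the control replicates. No member passed limma's test at an adjusted p of 0.05 (Benjamini-Hochberg over 16280 genes, 0.491% of which passed), and 12 of 59 members had an unadjusted p under 0.05, against 12.8% of all tested genes. Salt was higher in 47 of the 59 members and lower in 12, with a median log2 change of 0.50, beside -0.05 over all tested genes. Without M-81E control replicate 2 the median of the members was 0.06, with 35 higher and 24 lower, beside 0.01 over all genes. The endodermis markers moved the same way: all 8 tested were higher with salt, with a median of 0.87, and 6 of 8 with a median of 0.41 without that library, and their part in the members' change was not tested. The medians of the tested root hair, shoot and dividing-cell markers were -0.14, -0.06 and -0.16, and 0.02, 0.12 and -0.05 without it. Leaving out the other control library, replicate 1, gave a median of 0.98 for the members, with 51 higher and 8 lower, beside -0.12 over all genes. Without M-81E salt replicate 2 these medians were 0.65 and -0.10.

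The M-81E salt and control libraries did not overlap for 26 members, of which 23 were higher and 3 lower with salt, against 18.3% and 19.4% of all tested genes. The smallest adjusted p belonged to the transferase gene SORBI_3006G205700. It had 45.9 and 48.7 FPKM in Roma salt roots, 35.7 and 27.0 FPKM in Roma control roots, 28.5 and 27.9 FPKM in M-81E salt roots, and 9.47 and 6.95 FPKM in M-81E control roots. Salt libraries were above control libraries in both strains, with close replicates. Its log2 change with salt in M-81E was 1.68 ± 0.23 (SE; limma adjusted p = 0.0562), and 1.48 ± 0.20 without M-81E control replicate 2 (limma adjusted p = 0.0888).

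Next came SORBI_3002G302000, also a transferase gene, with 3.04 and 3.33 FPKM in Roma salt roots, 3.62 and 4.57 FPKM in Roma control roots, 10.6 and 7.70 FPKM in M-81E salt roots, and 1.61 and 0.336 FPKM in M-81E control roots. The M-81E salt libraries were the highest of the 8 and the M-81E control libraries the lowest. The log2 change with salt in M-81E was 2.42 ± 0.36 (SE; limma adjusted p = 0.0723), and 1.94 ± 0.25 without M-81E control replicate 2 (limma adjusted p = 0.0741). In the other direction, SORBI_3007G086300 had 9.33 and 5.72 FPKM in M-81E salt roots against 21.7 and 14.8 FPKM in M-81E control roots, with a log2 change of -1.18 ± 0.30 (SE; limma adjusted p = 0.232), and -1.45 ± 0.31 without M-81E control replicate 2 (limma adjusted p = 0.196). Its Roma libraries had 9.55 and 9.35 FPKM with salt and 13.2 and 10.3 FPKM in control, again without overlap.

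In Roma roots the members leaned the other way. No member passed the salt test there (limma, 0.473% of all genes passed), and 10 of 59 had an unadjusted p under 0.05, against 11.8% of all tested genes. Salt was higher in 24 members and lower in 35, with a median log2 change of -0.35, beside -0.03 over all genes. Without Roma salt replicate 2 the median was -0.17, with 26 higher and 33 lower. By role, 25 of 35 loosening genes were lower, with a median of -0.53, and 13 of 21 transferase genes were higher, with a median of 0.27. The transferase median rested on single libraries, at -0.15 without Roma salt replicate 1, when 9 were higher and 12 lower, and at 0.15 without Roma control replicate 1. That of the loosening genes was between -0.55 and -0.45 whichever library was left out. Salt and control libraries did not overlap for 12 members that were higher and 28 that were lower, against 27.2% and 32.3% of all genes. Among them, SORBI_3001G300400 and SORBI_3001G301500 were lower with salt, and SORBI_3009G173700 was higher.

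The loosening gene SORBI_3009G173700 had 4.83 and 5.33 FPKM in Roma salt roots, 0.298 and 0.365 FPKM in Roma control roots, 1.93 and 3.90 FPKM in M-81E salt roots, and 1.86 and 3.39 FPKM in M-81E control roots. Roma control libraries were far below all others, and the M-81E groups overlapped. Its log2 change with salt in Roma was 2.19 ± 0.33 (SE; limma adjusted p = 0.0665), on the log2(FPKM + 1) scale, which understates changes of low genes. The loosening gene SORBI_3001G301500 had 1.85 and 1.78 FPKM in Roma salt roots, 5.82 and 6.19 FPKM in Roma control roots, 1.12 and 1.18 FPKM in M-81E salt roots, and 1.63 and 0.257 FPKM in M-81E control roots. Roma control was again the group apart, here as the highest, and the log2 change with salt in Roma was -1.32 ± 0.35 (SE; limma adjusted p = 0.221).

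Among loosening genes with separate Roma groups, SORBI_3002G124500 had the largest negative change, with 1.14 and 1.35 FPKM in Roma salt roots against 9.04 and 3.58 FPKM in Roma control roots (log2 change -1.60 ± 0.60, SE; limma adjusted p = 0.373). SORBI_3001G301000 gave 1.32 ± 0.99 for its higher salt libraries in Roma (SE; limma adjusted p = 0.684) and SORBI_3004G273200 gave 0.96 ± 0.73 (SE; limma adjusted p = 0.688). The replicates of both genes were far apart in M-81E control roots.

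**Figure D2:**
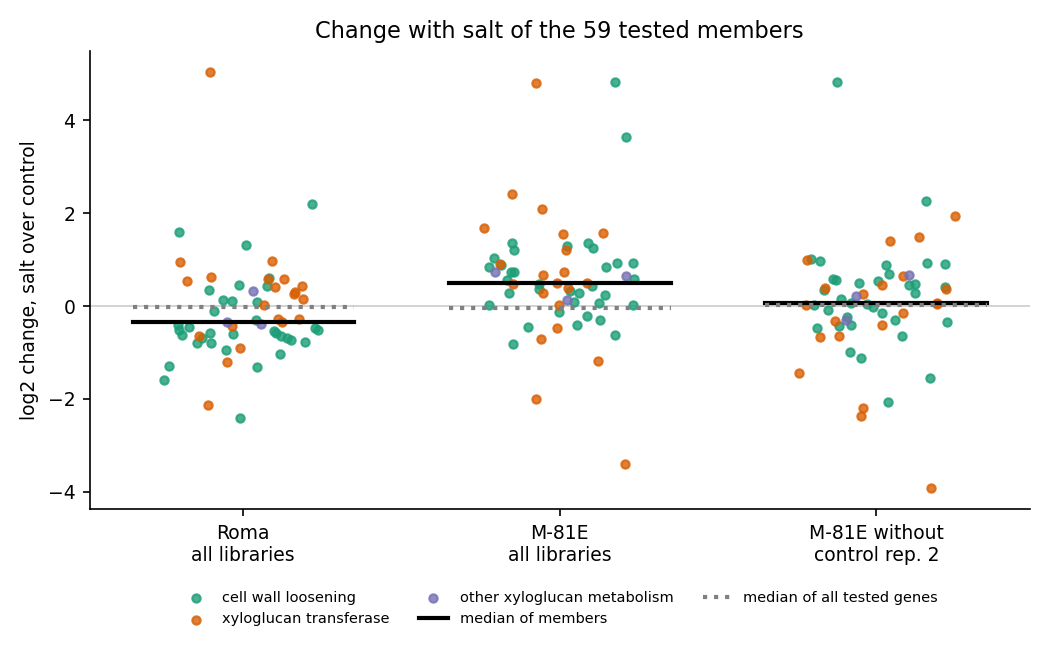
Change with salt of each of the 59 tested members (points, coloured by role) as log2 of FPKM + 1, salt over control, in Roma with all libraries, in M-81E with all libraries and in M-81E without control replicate 2. Black lines are the members' medians (-0.35, 0.50 and 0.06) and dotted grey lines the medians of all tested genes, and the M-81E median of the members moves to that of all genes without the 1 library.

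A contrast between the strains in their salt response was seen in the libraries' order but did not pass its test. Salt libraries were above control libraries in M-81E and below them in Roma, without overlap, for 10 of the 59 members, against 4% of all tested genes, and the reverse was seen for 0 members, against 3.31%. The 10 included the transferase genes SORBI_3002G302000 and SORBI_3007G090436, the loosening genes SORBI_3001G542200, SORBI_3004G294300 and SORBI_3004G294400, and SORBI_3004G164000 of the other class. Salt was higher in both strains for 5 members, against 7.22% of all genes: SORBI_3001G401600, SORBI_3004G126700, SORBI_3005G140001, SORBI_3006G205700 and SORBI_3010G246400. It was lower in both for 3, against 9.41%: SORBI_3004G121800, SORBI_3007G086300 and SORBI_3010G246700. By the salt response of Roma minus that of M-81E, tested as an interaction in limma, no member passed (0.178% of all genes passed) and 15 had an unadjusted p under 0.05, against 8.73% of all genes. The median of that difference was -0.72 over the members and 0.03 over all genes, and -0.34 and -0.05 without M-81E control replicate 2. It was negative for all 8 tested endodermis markers, with a median of -0.77, and for 6 of 8 with a median of -0.32 without that library, and their part was not tested. With M-81E control replicate 1 left out instead, the members' median was -1.23, beside 0.12 over all genes. Without M-81E salt replicate 2 these medians were -0.87 and 0.08.

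Of the members named for this difference, SORBI_3007G090436 had the largest, at -3.30 ± 1.09 (SE; limma adjusted p = 0.471), and without M-81E control replicate 2 it was -2.21 ± 0.79 (limma adjusted p = 0.370). For SORBI_3002G302000 the difference of the responses was -2.70 ± 0.50 (SE; limma adjusted p = 0.185), the smallest adjusted p of the members with all libraries, and -2.22 ± 0.32 without that library (limma adjusted p = 0.114). SORBI_3004G294400, described next, gave -2.60 ± 0.51 (SE; limma adjusted p = 0.215), and -2.27 ± 0.50 without it (limma adjusted p = 0.230). In the positive direction, SORBI_3009G173700 gave 2.09 ± 0.47 (SE; limma adjusted p = 0.275), and 1.79 ± 0.44 without it (limma adjusted p = 0.261).

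The strains themselves differed in control roots. Of the 59 tested members, 12 passed limma's test of Roma against M-81E in control, 10 higher and 2 lower in Roma, where 12.1% of all tested genes passed, 8.35% higher and 3.76% lower. The members' median log2 difference was 0.91, beside 0.30 over all genes. Quantile scaling of the libraries moved the median of all genes by -0.27 in this contrast and by -0.24 in that under salt. Relative to all genes, the members' median was thus 0.61 in the deposited scale and 0.52 after quantile scaling, and without M-81E control replicate 2 it was 0.56, or 0.22 above the median of all genes, while without M-81E control replicate 1 it was 1.46. The groups did not overlap for 35 members that were higher and 4 that were lower in Roma, against 42.7% and 16.8% of all genes. The count of calls moved when most of the single libraries were left out. It was lowest without either Roma control library and highest without M-81E control replicate 1, among the members as among all tested genes. Those counts are not used here, because a group left with 1 library has no spread of its own. The adjusted p-values quoted without M-81E control replicate 2 assume that its group varied like the others. Some of the 12 members called with all libraries did not pass without M-81E control replicate 2, and they are named below. Passing without that library does not make a call stable against the omission of others. Of the 12, 9 passed with a pseudocount of 0.1, 9 with quantile scaling and 9 with the replicate number as a block. Of all tested genes 10.5%, 9.31% and 8.2% passed in the same order. With no filter on low values 7 of the 12 passed, where 7.32% of all genes did.

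Called transferase genes were all higher in Roma. SORBI_3006G205700, whose values stand above, differed by a log2 of 1.81 ± 0.23 (SE; limma adjusted p = 0.00906), and its control groups did not overlap. SORBI_3005G140001 had 11.5 and 12.6 FPKM in Roma salt roots, 9.95 and 9.67 FPKM in Roma control roots, 8.18 and 2.79 FPKM in M-81E salt roots, and 1.22 and 0.744 FPKM in M-81E control roots. All Roma libraries were above all M-81E libraries, and the difference in control was 2.46 ± 0.42 (SE; limma adjusted p = 0.0202). SORBI_3004G126700 had 11.6 and 10.2 FPKM in Roma salt roots, 7.73 and 9.70 FPKM in Roma control roots, 4.70 and 4.46 FPKM in M-81E salt roots, and 3.05 and 1.17 FPKM in M-81E control roots. It too was higher in every Roma library, by 1.71 ± 0.32 in control (SE; limma adjusted p = 0.0271).

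SORBI_3010G246700 had 0 and 0.422 FPKM in Roma salt roots, 3.22 and 5.44 FPKM in Roma control roots, 0.402 and 0 FPKM in M-81E salt roots, and 0.847 and 0.476 FPKM in M-81E control roots. Roma control was the only group above 1 FPKM, and the difference in control was 1.66 ± 0.34 (SE; limma adjusted p = 0.0318). Its salt values in both strains include a listed 0, so no fold with salt is given.

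Among the loosening genes called, SORBI_3004G294400 differed most. It had 2.90 and 1.67 FPKM in Roma salt roots, 5.62 and 8.55 FPKM in Roma control roots, 3.65 and 2.38 FPKM in M-81E salt roots, and 1.03 and 0.271 FPKM in M-81E control roots. The salt libraries of the strains overlapped while the control libraries lay on either side of them, and the difference in control was 2.31 ± 0.36 (SE; limma adjusted p = 0.0167). Its neighbour by identifier, SORBI_3004G294300, had 4.98 and 2.54 FPKM in Roma control roots against 0.708 and 0.347 FPKM in M-81E control roots, a difference of 1.60 ± 0.38 (SE; limma adjusted p = 0.0465), which did not pass without M-81E control replicate 2 (limma adjusted p = 0.0927).

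SORBI_3001G301500 and SORBI_3001G300400, given above, were higher in Roma control roots by 1.95 ± 0.35 (SE; limma adjusted p = 0.0241) and 1.71 ± 0.38 (SE; limma adjusted p = 0.0394). SORBI_3001G542200 had 15.2 and 15.5 FPKM in Roma control roots against 4.27 and 2.64 FPKM in M-81E control roots, a difference of 1.90 ± 0.35 (SE; limma adjusted p = 0.0244). SORBI_3006G031900 had 11.8 and 7.08 FPKM in Roma control roots against 3.21 and 1.85 FPKM in M-81E control roots, or 1.55 ± 0.33 (SE; limma adjusted p = 0.0355), and did not pass without M-81E control replicate 2 (limma adjusted p = 0.0643). All 4 genes had separate control groups.

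The loosening genes called lower in Roma were SORBI_3004G121700 and SORBI_3009G173700. SORBI_3004G121700 had 0.231 and 0.0638 FPKM in Roma salt roots, 0.0991 and 0.359 FPKM in Roma control roots, 2.12 and 2.62 FPKM in M-81E salt roots, and 4.27 and 1.56 FPKM in M-81E control roots. Every Roma library was under every M-81E library, whatever the treatment, and the difference in control was -1.59 ± 0.37 (SE; limma adjusted p = 0.0449). SORBI_3009G173700 differed by -1.41 ± 0.33 in control (SE; limma adjusted p = 0.0447), where only Roma control was low, and did not pass without M-81E control replicate 2 (limma adjusted p = 0.0778). SORBI_3010G246700 likewise did not pass without that library (limma adjusted p = 0.0603).

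**Figure D3:**
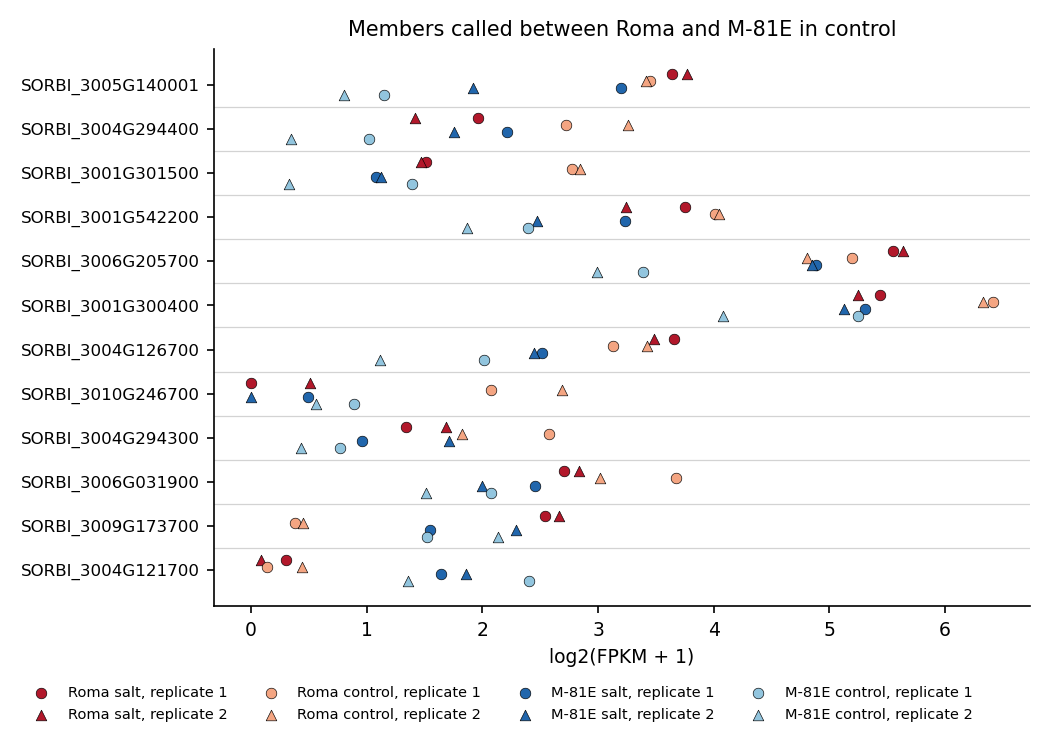
Level of the 12 members called between Roma and M-81E in control roots, as log2(FPKM + 1) per library (circles replicate 1, triangles replicate 2, coloured by group). In the upper 10 genes the Roma control points lie right of the M-81E control points, and in SORBI_3009G173700 and SORBI_3004G121700 they lie left of them.

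Under salt no member passed limma's test of Roma against M-81E under salt, where 8.42% of all tested genes passed, and 8 of 59 members had an unadjusted p under 0.05, against 29.3% of all genes. The median was 0.24 over the members and 0.29 over all genes, or 0.04 and 0.34 when M-81E salt replicate 2 was left out. After quantile scaling it was 0.002 and 0.05. The groups did not overlap for 17 members that were higher and 11 that were lower in Roma, against 48.1% and 19.5% of all genes. SORBI_3004G121700 came nearest, at -1.56 ± 0.37 (SE; limma adjusted p = 0.0561), and SORBI_3002G302000 followed at -1.26 ± 0.36 (SE; limma adjusted p = 0.0827). Both passed after quantile scaling, when 6.33% of all tested genes passed. SORBI_3001G301000, SORBI_3004G126700 and SORBI_3006G205700 were higher in Roma under salt, without overlap. SORBI_3005G140001 gave 1.14 ± 0.42 (SE; limma adjusted p = 0.136). SORBI_3007G090460 had 0.145 and 19.9 FPKM in M-81E salt roots, so its difference of 2.28 ± 1.48 (SE; limma adjusted p = 0.349) came with a wide error.

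Other wall genes of the same table, picked by their annotation, are given for comparison. For Roma against M-81E in control roots, limma called 8.35% of all tested genes higher and 3.76% lower in Roma. It called 2 of 40 tested pectin modification genes higher and 4 lower, and 2 of 32 cellulose synthesis genes higher and 0 lower. Of 44 xylan and mannan genes it called 3 higher and 1 lower, and of 14 wall glucan hydrolysis genes 3 higher and 0 lower. The median differences of these lists were 0.49, 0.37, 0.30 and 0.88, beside 0.91 for the members. Without M-81E control replicate 2 they were 0.40, 0.40, 0.34 and 0.62, beside 0.56. The members' median was thus above that of glucan hydrolysis with this library and below it without. For salt in M-81E the medians were 0.27, 0.09, 0.09 and 0.46 with no call by limma, beside 0.50 for the members. At an unadjusted p under 0.05 (limma) there were 7, 5, 3 and 2 genes, against 12.8% of all tested genes. Without M-81E control replicate 2 they were 0.16, 0.17, -0.03 and 0.31, beside 0.06 for the members, which were then below 3 of the 4 lists. For salt in Roma they were 0.11, -0.05, 0.01 and 0.08, beside -0.35 for the members, with 1 gene called lower in the cellulose list and 1 in the xylan and mannan list, which share 12 genes, and none in the other lists (2 genes in each at an unadjusted p under 0.05, limma). Of all tested genes 0.473% were called there and 11.8% had an unadjusted p under 0.05 (limma). These 4 medians for salt in Roma lay between -0.10 and 0.19 whichever library was left out. For Roma against M-81E under salt, 1 higher and 2 lower pectin genes, 1 higher and 1 lower cellulose gene, 1 higher and 1 lower xylan or mannan gene, and 2 higher glucan hydrolysis genes were called. Of all tested genes 8.42% were called in that contrast. No gene of these lists passed for the interaction (3, 6, 4 and 1 at an unadjusted p under 0.05, limma, against 8.73% of all tested genes).

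Dividing-cell markers summed to 1892 to 2339 FPKM in Roma salt roots, 1959 to 1987 FPKM in Roma control roots, 1333 to 1622 FPKM in M-81E salt roots and 876 to 1356 FPKM in M-81E control roots, and root hair markers to 1313 to 1349 FPKM, 1106 to 1221 FPKM, 904 to 959 FPKM and 775 to 885 FPKM in the same groups. Both sums were thus higher in Roma, as most members were in control roots. The other marker lists did not follow that order. Endodermis markers summed to 92.6 to 126 FPKM in Roma salt roots, 89.7 to 92.1 FPKM in Roma control roots, 124 to 129 FPKM in M-81E salt roots and 66.8 to 109 FPKM in M-81E control roots, so the strains overlapped in both treatments. Photosystem and chlorophyll markers summed to 268 to 274 FPKM, 195 to 204 FPKM, 243 to 270.0 FPKM and 307 to 315 FPKM in the same groups, lower in Roma in control roots. The part of these markers in the strain difference was not tested.

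m6A peaks were listed for few members. At least 1 peak stood in the deposited list for 12 members in Roma salt roots, 7 in Roma control roots, 10 in M-81E salt roots and 8 in M-81E control roots, all of them with a group mean of at least 1 FPKM. Among the members at that level these were 22.2% of 54, 10.8% of 65, 18.2% of 55 and 18.6% of 43. Of all genes at that level 56.8%, 31.1%, 51.6% and 50.6% had a peak in the same lists. At 10 FPKM or more the members' shares were 44.4%, 22.7% and 47.1% in the first 3 lists and 3 of 12 genes in the M-81E control list, against 80.1%, 55.1%, 76.3% and 76.7% of all genes. The members' share was the lower of the pair in every list at both levels. There is 1 list per strain and treatment, so the shares have no replicate check.

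**Figure D4:**
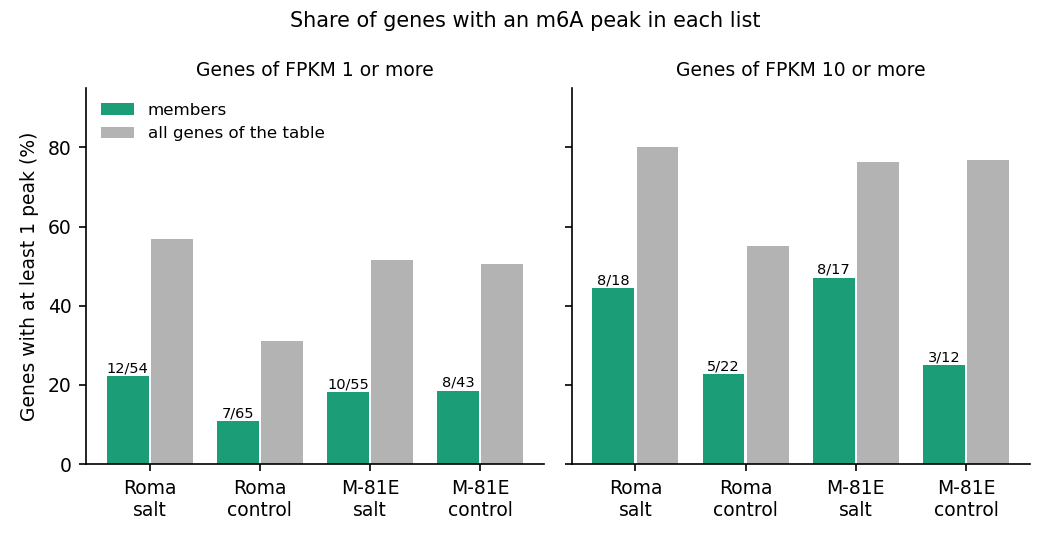
Percent of genes with at least 1 m6A peak in each deposited list, for members (green, with counts) and all genes of the table (grey), at a group mean of 1 FPKM or more (left) and 10 FPKM or more (right). The green bar is the shorter in all 8 pairs.

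For the other wall lists the share at 1 FPKM or more was numerically above that of the members in every peak list. Among cellulose synthesis genes of 1 FPKM or more the share was 68.8% in the Roma salt list, 51.6% in the Roma control list, 63.6% in the M-81E salt list and 56.2% in the M-81E control list. Among pectin modification genes it was 39.0%, 17.5%, 40.5% and 30.3% in the same order, and among xylan and mannan genes 45.5%, 38.1%, 44.2% and 41.9%. Wall glucan hydrolysis genes had 50.0%, 14.3%, 46.2% and 36.4%. The lists hold few genes each, and the differences were not tested.

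Over the 4 lists, 42 peaks fell on 14 members. Joining peaks of a gene that shared 1 bp or more gave 18 regions, of which 10 were annotated in a 3′ UTR, 4 in a 5′ UTR and 4 in another exon. By peaks, 23.8% of the members' were in a 5′ UTR, against 8.62% of all 38503 peaks, and 61.9% in a 3′ UTR, against 76.2%. Of the 10 peaks in a 5′ UTR, 8 came from 2 genes that recur in all 4 lists. Of the 42 peaks, 11 lay above the median fold enrichment of their own list. Fold enrichment, IP over input, is the authors' value for each peak, and coordinates are those of their lists, for which neither labels nor headers name a build.

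The strongest peak was that in the 5′ UTR of SORBI_3004G164000, a gene of the other xyloglucan class, at chr4:51346010-51346308 on the minus strand. Its fold enrichment was 283 in the Roma salt list, 98.4 in the Roma control list, 104 in the M-81E salt list and 63.6 in the M-81E control list, above 98.2%, 92.7%, 97.3% and 90.2% of the peaks of those lists. The loosening gene SORBI_3001G300400 had a 3′ UTR peak at chr1:58171710-58172066, minus strand, with folds of 33.3, 34.9, 16.5 and 15.3 in the same order of lists, above each list's median of 21.4, 18.0, 12.9 and 12.8. This gene was called higher in Roma control roots, and its peak was present in both strains and treatments.

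SORBI_3004G191600, a loosening gene at 3.02 to 5.43 FPKM, had a peak at chr4:54341448-54341686, plus strand, in the 3′ UTR at the gene's end, with folds of 32.7, 51.4, 10.2 and 9.57, and another in an exon in the M-81E control list alone. The transferase gene SORBI_3004G273200 had a 3′ UTR peak at chr4:61698385-61698684, minus strand, with folds of 5.72, 7.43, 8.84 and 3.16, and 2 further regions in the M-81E control list alone. The abundant transferase gene SORBI_3010G246400 had a 5′ UTR peak at chr10:58611150-58611473, plus strand, with folds of 4.63, 6.28, 2.85 and 5.92, and another in an exon in the Roma salt and M-81E control lists, at 1.47 and 1.83. These 5 genes were the only members with a peak in all 4 lists, and the peaks of the last of them lay above 23.8% or less of each list by fold.

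The other 9 members with peaks had them in some lists only. SORBI_3001G284600 and SORBI_3006G191700 lacked 1 in the Roma control list alone, which is also the shortest list, with 5949 peaks against 12080 in Roma salt, 10255 in M-81E salt and 10219 in M-81E control. SORBI_3007G090463 lacked 1 in the M-81E control list alone. SORBI_3010G194500 had a 3′ UTR peak in both Roma lists, with folds of 16.9 under salt and 11.4 in control, and in neither M-81E list, and its level was 0.852 and 1.40 FPKM in Roma salt roots, 2.36 and 3.04 FPKM in Roma control roots, 0.628 and 0.137 FPKM in M-81E salt roots, and 0.8996 and 0.292 FPKM in M-81E control roots. The gene was thus below 1 FPKM in every M-81E library, and the part of its level in the lists was not tested. SORBI_3007G090436 had a peak in both salt lists, at folds of 1.44 in Roma and 1.41 in M-81E, near the bottom of each list.

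SORBI_3002G324100 and SORBI_3006G205700 had a peak in the Roma salt list alone, with folds of 8.64 and 2.58. SORBI_3001G401600 had 1 in the M-81E salt list alone, at 2.67, and SORBI_3001G238000 in the M-81E control list alone, at 4.60. At a fold of at least 4 the number of members with a peak was 9 in the Roma salt list, 6 in the Roma control list, 6 in the M-81E salt list and 8 in the M-81E control list. Of 18 members with a mean of at least 10 FPKM, 9 had none in any list, the highest being SORBI_3006G205600 with a mean of 92.04 FPKM. None of the members with a mean under 1 FPKM had a peak.

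**Figure D5:**
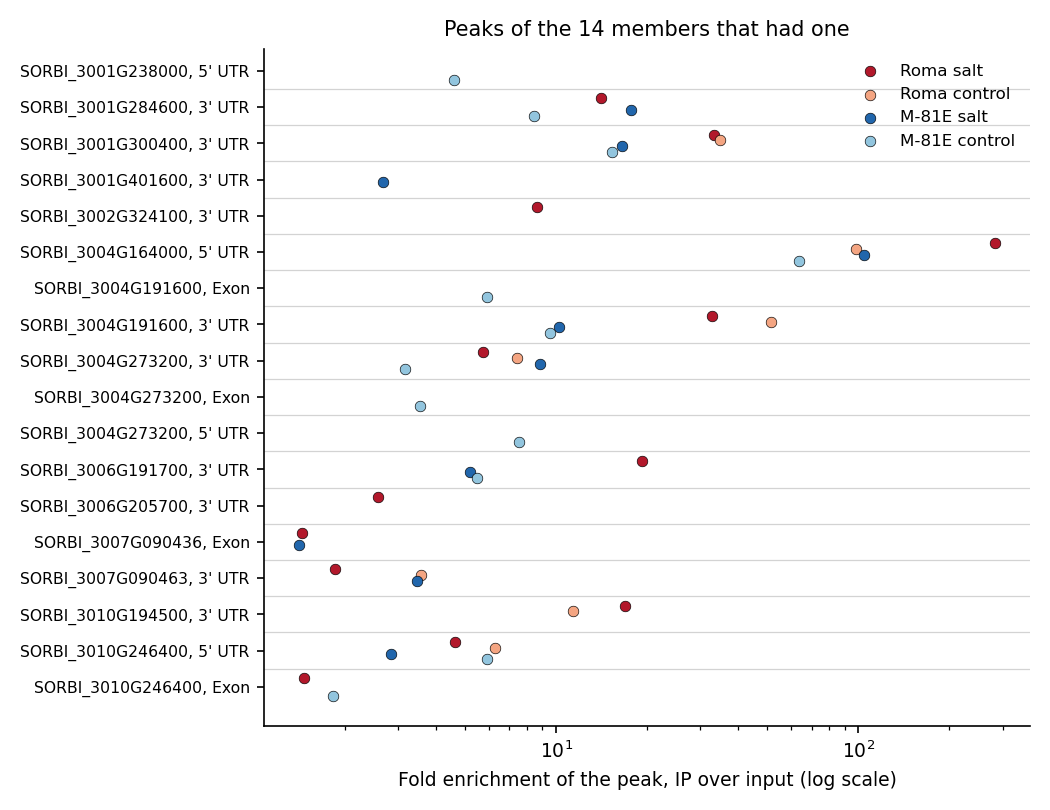
Fold enrichment of IP over input (log scale) of every peak on a member, in rows by gene and annotated part of the gene, coloured by list. SORBI_3004G164000 stands furthest right in all 4 lists, from 63.6 to 283, and 5 rows hold points of all 4 lists.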

How the data were processed

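Per the labels, 16 root samples (IP and input, 2 replicates for each of 8 groups) were sequenced. The deposited table holds FPKM computed by the authors for 8 libraries, which sample descriptions place with the IP samples, and 4 deposited peak lists hold fold enrichment (a ratio) and score columns with the log10 p of each peak. Tools named in the submitters' processing notes, with no role given, are edgeR, StringTie, HISAT2, ChIPseeker, cutadapt and FastQC. Peak caller, pooling of replicates, build and annotation are nowhere stated in them. No column was left unused (0). Members were matched to the RefSeq gene table by identifier and none matched (0 of 105), so no symbols or sequences are given.

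The members and the comparison lists were chosen with earlier results of these data known. Expression was fitted with limma 3.58.1 in R 4.3.3 on log2(FPKM + 1) for the 16280 genes with a mean of at least 1 FPKM, with 1 mean per group and a trended eBayes, and p-values were adjusted over all genes. Values with ± are SEs of that fit, with n = 2 libraries per group. The fit was tested on data simulated for salt in Roma. Genes to be changed were drawn from those with a mean log2(FPKM + 1) above 2, so the recovery does not cover members below that level. Of 50 genes changed by a log2 of 1, 3 were called, and of 50 changed by 2, 22 were called. At 3 and 4 it was 36 and 40 of 50, with 6 false calls among 107. A member that did not pass may thus still have changed. Members are named where they passed a test, were among the 4 highest of their role, were among the 3 largest separate changes each way in a contrast, differed in presence between lists or had 1 of the 5 highest folds. Figures were drawn with matplotlib 3.10.9 and tables with pandas 2.3.3 and numpy 2.4.6 in Python 3.11.15.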

Additional observations from a re-analysis of the deposited data

How the results depend on the processing

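The 36 named differences all came from groups or responses that did not overlap. Omitting a library or changing the pseudocount, filter or block therefore could not reverse their directions. The directions also held under quantile scaling. Over the 14 alternatives, calls among them were lost more often than gained. With the replicate number as a block, 9 members were called for Roma against M-81E in control, where 8.2% of all genes were called. None was called in the other 4 contrasts. The replicate numbers did not pair the samples (correlations of replicate differences between -0.038 and 0.038), and with 2 pairs no more can be said. Omitting each library in turn, where a lone library is assumed to vary like the other groups, gave 0 to 12 called members for salt in M-81E, 0 to 3 for salt in Roma, 0 to 7 for the interaction, 0 to 25 for the strains in control and 0 to 5 for the strains under salt. The share of all tested genes called moved too. In every contrast that share was highest, like the count of members, without an M-81E control library. The counts alone therefore do not set the members apart from other genes. With each library omitted in turn, the members' medians ran from 0.063 to 0.98, from -0.36 to -0.17, from -1.23 to -0.34, from 0.56 to 1.46 and from 0.04 to 0.32 in that order of contrasts. A pseudocount of 0.1 moved the median for salt in M-81E to 0.76, that of the interaction to -1.05 and that of the strains in control to 1.29. With no filter on low values, over all 105 members, the medians were 0.22 for salt in M-81E, -0.17 for salt in Roma, -0.41 for the interaction, 0.55 for the strains in control and 0.04 for the strains under salt. With quantile scaling they were 0.43, -0.35, -0.67, 0.55 and 0.002, and 2 members were called between the strains under salt, where 6.33% of all genes were called. An alternative chosen after the data were seen took doubtful zeros as missing. It called 1 member between the strains under salt, where 10.3% of all genes were called. Together with leaving out M-81E control replicate 2 it gave medians of 0.061 for salt in M-81E, -0.33 for the interaction and 0.52 for the strains in control. At a peak fold of at least 4, 6 members had a peak in M-81E salt. Requiring an overlap of 50% left 5 regions shared by all lists. Except for omitted libraries and these moves, counts of calls stayed within 1.5 times the main ones and the cause of the moves was not tested.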
